A study of Homo sapiens with 12 samples.

Results

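The genes that make cholesterol and fatty acids were followed in TMD8 cells after IRF4 was silenced. TMD8 is a human lymphoma line, grown from a diffuse large B cell lymphoma with an activated B cell profile. Members were picked by gene name: 40 genes of the 26318 in the count table, of which 27 belong to the sterol branch and 13 to the fatty acid branch. The sterol branch held 8 genes of the mevalonate pathway, 10 of the steps between squalene and cholesterol, 5 that control the SREBP transcription factors and 4 of sterol transport and its LXR receptors. The fatty acid branch held 3 genes of fatty acid synthesis, 6 of elongation and desaturation and 4 acyl-CoA synthetases. Cells carried either a short hairpin RNA (shRNA) directed at IRF4 (6 libraries) or a scramble shRNA with no intended target (6 control libraries), and pellets were taken at 24 h. The names of the libraries split each group into library series 1 and library series 2, with 3 libraries of each group per series, and the sources used here do not say what that number stands for. The model is 1 cell line, and the labels name neither the hairpins nor the cultures behind the libraries. P-values therefore reflect only how these libraries varied, which may be technical. A sample characteristic gives the cell line a number that climbs from TMD8 to other values along the samples, whereas all titles read TMD8, and the libraries were treated as 1 line.

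Cholesterol is built from acetyl-CoA through mevalonate to squalene, which is closed to lanosterol and trimmed to cholesterol. When sterols run low in the endoplasmic reticulum, SCAP carries SREBP precursors to the Golgi for cleavage, and the released factors switch on most of these enzymes; INSIG proteins hold SCAP back when sterols are plentiful. Oxysterols and late sterol intermediates activate LXR, which raises genes of cholesterol export such as ABCA1 and can also raise SREBF1. Fatty acids are made from citrate-derived acetyl-CoA by ACLY, ACACA and FASN, then lengthened, desaturated and joined to coenzyme A. In lymphocytes these routes supply membrane for dividing cells. IRF4 is a transcription factor of activated B cells and plasma cells.

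The promoters were read because SREBP, LXR and IRF factors act through known DNA elements. RefSeq windows of 300 bases (250 before to 50 after the gene start, build GRCh38.p14) were matched for 35 of the 40 members. ABCG1, ACAT2, FASN, FDFT1 and SQLE had no window. The 250 bases before the start are shown 5′ to 3′ for 5 members on which the results below turn, with motif matches in capitals: HMGCS1 (chr5:43313413-43313662, minus strand), MSMO1 (chr4:165327419-165327668, plus strand), INSIG1 (chr7:155297628-155297877, plus strand), SREBF2 (chr22:41832855-41833104, plus strand) and ABCA1 (chr9:104928156-104928405, minus strand).
HMGCS1: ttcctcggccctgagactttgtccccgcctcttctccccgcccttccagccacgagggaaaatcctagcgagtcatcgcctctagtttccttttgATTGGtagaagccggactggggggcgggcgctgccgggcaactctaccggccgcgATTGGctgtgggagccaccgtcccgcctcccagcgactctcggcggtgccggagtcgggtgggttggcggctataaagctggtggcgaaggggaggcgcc
MSMO1: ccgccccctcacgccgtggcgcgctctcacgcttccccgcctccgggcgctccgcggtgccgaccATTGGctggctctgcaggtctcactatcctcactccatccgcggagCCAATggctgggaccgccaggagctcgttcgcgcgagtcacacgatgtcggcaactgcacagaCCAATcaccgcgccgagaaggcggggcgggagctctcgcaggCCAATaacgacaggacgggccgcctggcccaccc
INSIG1: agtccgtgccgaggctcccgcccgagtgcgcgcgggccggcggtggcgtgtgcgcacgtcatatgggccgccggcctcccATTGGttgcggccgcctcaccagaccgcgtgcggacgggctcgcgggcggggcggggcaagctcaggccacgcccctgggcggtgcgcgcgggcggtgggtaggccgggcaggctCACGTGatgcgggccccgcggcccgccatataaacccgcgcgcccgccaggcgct
SREBF2: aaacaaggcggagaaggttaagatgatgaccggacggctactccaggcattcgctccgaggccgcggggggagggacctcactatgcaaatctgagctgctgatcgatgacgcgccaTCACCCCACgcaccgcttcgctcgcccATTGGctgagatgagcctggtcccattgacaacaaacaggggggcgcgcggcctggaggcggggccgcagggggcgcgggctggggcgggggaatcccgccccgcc
ABCA1: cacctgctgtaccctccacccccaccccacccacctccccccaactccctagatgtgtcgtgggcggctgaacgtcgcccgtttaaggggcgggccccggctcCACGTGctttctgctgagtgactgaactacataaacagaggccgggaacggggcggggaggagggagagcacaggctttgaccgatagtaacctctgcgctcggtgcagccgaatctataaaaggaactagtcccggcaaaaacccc
Capitals mark the CCAAT box (CCAAT, or ATTGG where it lies on the other strand) bound by NF-Y, the E-box CACGTG bound by helix-loop-helix factors, and the sterol response element core TCACNCCAC bound by SREBP. Of the printed promoters, MSMO1 held 4 CCAAT boxes, HMGCS1 held 2, and SREBF2 and INSIG1 held 1 each.

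Over all members, a CCAAT box stood in 15 of 23 sterol windows (65.2%) and in 5 of 12 fatty acid windows (41.7%), against 36.9% of the 10293 tested genes with a window. The E-box stood in 5 of 23 sterol windows (21.7%: ABCA1, INSIG1, LSS, SC5D and SCAP) and in 1 of 12 fatty acid windows (8.33%, ELOVL5), against 10.3% of tested genes. The sterol response element core stood in 1 of 23 sterol windows (4.35%, SREBF2, 133 bases before the start) and in 0 of 12 fatty acid windows, against 1.08% of tested genes. Sterol response elements with other letters, or outside the windows, were not searched for. The ETS-IRF composite element (GGAA, any 2 bases, GAAA) and the interferon response core (GAAA, any 2 bases, GAAA) stood in 0 of the 35 member windows, against 2.77% and 3.30% of tested genes. The exact letters of the LXR element (AGGTCA repeated after 4 spacer bases) stood in 0 of the member windows and in 0 of the 10293 tested genes. A search that matched no tested gene cannot tell members from other genes, and LXR elements with other letters were not searched for. The printed ABCA1 promoter holds a near match in lower case, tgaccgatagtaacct. On the other strand it reads AGGTTA, 4 spacer bases and CGGTCA. How many other windows hold a near match was not counted. All 6 motifs were searched on both strands and overlaps were not merged; a match is a description of letters, not a binding site.

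Libraries held 31.3 to 38.2 M counts (M, 1e6 counts). Levels are counts per 1e6 counts on TMM-scaled library sizes (CPM), where TMM is a scaling that sets the bulk of genes equal between libraries. IRF4 averaged 610.5 ± 101 CPM with IRF4 shRNA and 1479.9 ± 55.9 CPM in controls (SD, n = 6 each), or 41.3% of control, with 34.7% of control left in series 1 and 47.9% in series 2. The B cell markers CD79A, CD79B, MS4A1 and PAX5 were all present, CD79A averaging 1127 CPM with IRF4 shRNA and 660 CPM in controls. Of the markers of other cells, MPO had 0 counts in every library and the highest was COL1A1, at 5.06 CPM with IRF4 shRNA and 4.18 CPM in controls. In a bulk sample, fewer cells of a kind and less RNA per cell cannot be told apart. Control replicates 5 and 6 stood apart in how counts followed the GC content of transcripts: Spearman's rho across genes between a library's deviation from its group mean and GC was 0.40 and 0.57 there, against -0.48 to -0.04 in the other 4 controls. It was 0.23 to 0.31 in the IRF4 shRNA libraries of series 1 and -0.32 to -0.20 in those of series 2.

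At 24 h, RNA levels of most members differed little between IRF4 shRNA and control. Protein, SREBP cleavage and lipid synthesis itself were not part of these data. Of the 40 members, 39 passed the filter on low counts, and 9 rose and 8 fell across all 12 libraries (edgeR quasi-likelihood test, Benjamini-Hochberg adjusted p under 0.05 over 16437 genes). That is 43.6% of the tested members, beside 48.2% of all genes tested (24.2% higher and 23.9% lower). In the sterol branch 6 of 26 tested members rose and 5 fell, with a median log2 fold change of -0.05. In the fatty acid branch 3 of 13 rose and 3 fell, with a median of 0.02, and the median of all genes tested was -0.01. The changes were small: 38 of the 39 members (97.4%) lay within 1.5-fold of control, beside 80.7% of all genes tested, and only ABCA1 passed 2-fold, beside 8.51% of all genes. These shares of all genes were not matched to the members for expression level. All 6 IRF4 shRNA libraries lay outside the range of the 6 controls for 4 of 26 sterol members (ACAT2, HMGCS1, FDFT1 and ABCA1) and 3 of 13 fatty acid members (FADS1, ACSL1 and ACSL4), while 30.8% of all genes tested were so separated. The split of calls depended on scaling: scaled by library size alone, where the median of all genes was 0.07, 11 members rose and 3 fell.

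**Figure D1:**
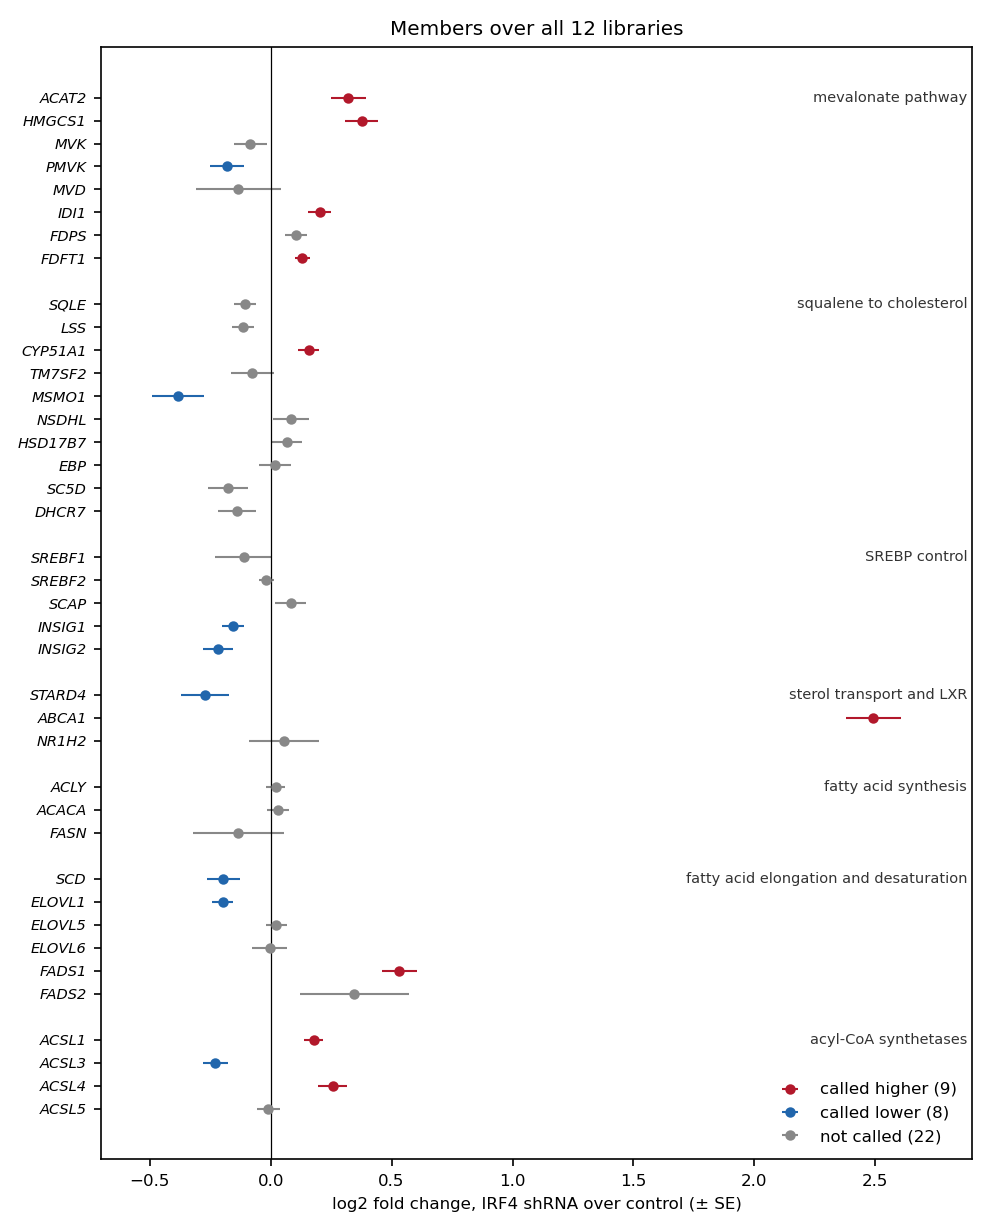
Log2 fold change of IRF4 shRNA over control (x axis) for the 39 tested members, grouped by role from the mevalonate pathway down to the acyl-CoA synthetases, over 12 libraries; points are edgeR estimates, bars are SE, and colour gives the call. ABCA1 stands alone at 2.49, while the other members lie between -0.38 (MSMO1) and 0.53 (FADS1).

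Levels per kilobase of exon ran over a wide range. The highest was SCD, the stearoyl-CoA desaturase, at 145 CPM per kilobase with IRF4 shRNA and 166 in controls. HMGCS1 (70.9), LSS (65.6) and INSIG1 (65.3) came next among levels per kilobase with IRF4 shRNA, and INSIG1 (72.7), LSS (71.1) and ACLY (57.6) in controls. At the low end, FADS2 had 0.0833 CPM per kilobase with IRF4 shRNA and 0.0655 in controls, and the sterol exporter ABCG1 had 4 to 7 counts per IRF4 shRNA library against 0 to 6 counts per control library and was not tested. ABCA1 had 1.73 CPM per kilobase with IRF4 shRNA and 0.307 in controls, so even after its rise it stayed below SREBF2, the main sterol regulator, at 53.9 with IRF4 shRNA and 54.6 in controls.

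In the mevalonate pathway, 4 of 8 members rose and 1 fell. The risers were enzymes at both ends of the pathway, and the largest rise, that of HMGCS1, was to 129.7% of control. HMGCS1, the cytosolic HMG-CoA synthase that commits acetyl units to mevalonate, had a lowest, median and highest level of 301, 329 and 381 CPM with IRF4 shRNA, against 237, 256 and 285 CPM in controls. Every IRF4 shRNA library lay above every control (log2 fold change 0.38, SE 0.07, edgeR adjusted p = 0.000323). ACAT2, which condenses acetyl-CoA to acetoacetyl-CoA, stood at 30.0, 34.2 and 39.1 CPM with IRF4 shRNA, against 24.3, 28.4 and 29.7 CPM in controls, again with no overlap (log2 fold change 0.32, SE 0.07, edgeR adjusted p = 0.00208). ACAT2 overlaps the opposite-strand genes SOD2 (485 bases) and TCP1 (615 bases), and whether the counting used strand is not given. IDI1, which isomerises the isoprenoid building block, had 152, 164 and 176 CPM with IRF4 shRNA, against 133, 142 and 155 CPM in controls, and here the groups overlapped (log2 fold change 0.20, SE 0.05, edgeR adjusted p = 0.0025). FDFT1, the squalene synthase that opens the sterol-only route, averaged 306 ± 11.6 CPM with IRF4 shRNA and 279 ± 7.93 CPM in controls (SD, n = 6 each; log2 fold change 0.13, SE 0.03, edgeR adjusted p = 0.00356). PMVK, the phosphomevalonate kinase, was the member that fell, to 88.3% of control (log2 fold change -0.18, SE 0.07, edgeR adjusted p = 0.0462). FDPS, the farnesyl diphosphate synthase, did not pass (log2 fold change 0.10, SE 0.04, edgeR adjusted p = 0.0655), and neither did the mevalonate kinase MVK (log2 fold change -0.09, SE 0.07, edgeR adjusted p = 0.329) or the decarboxylase MVD (log2 fold change -0.13, SE 0.18, edgeR adjusted p = 0.567). The call on PMVK was lost on leaving out any 1 of control replicates 1, 4, 5 and 6 or of IRF4 shRNA replicates 1, 3, 4, 5 and 6, and over all its alternatives the adjusted p ran from 0.00354 to 0.213.

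Between squalene and cholesterol, 1 of 10 members rose and 1 fell, and both act on the methyl groups of lanosterol. CYP51A1, which removes the first methyl group of lanosterol, had 152, 167 and 182 CPM with IRF4 shRNA, against 143, 150.3 and 155 CPM in controls as lowest, median and highest level (log2 fold change 0.16, SE 0.04, edgeR adjusted p = 0.00915). Its range with IRF4 shRNA began inside that of the controls. Processed copies of it took fewer counts, and their means were also higher with IRF4 shRNA. CYP51A1P1 averaged 9.74 CPM with IRF4 shRNA and 8.32 CPM in controls, and CYP51A1P2 averaged 16.7 CPM with IRF4 shRNA and 13.7 CPM in controls. Whether reads were split between CYP51A1 and these copies was not tested. MSMO1, the methylsterol oxidase that removes the next methyl groups, stood at 51.2, 64.8 and 76.4 CPM with IRF4 shRNA, against 73.7, 84.6 and 89.9 CPM in controls and fell to 76.6% of control (log2 fold change -0.38, SE 0.11, edgeR adjusted p = 0.00799). LSS, the lanosterol synthase, had 454, 475 and 502 CPM with IRF4 shRNA, against 469.6, 502 and 582 CPM in controls and did not pass (log2 fold change -0.11, SE 0.05, edgeR adjusted p = 0.0543). SC5D, the lathosterol desaturase, had 37.7, 44.1 and 48.8 CPM with IRF4 shRNA, against 42.2, 50.3 and 55.4 CPM in controls (log2 fold change -0.17, SE 0.08, edgeR adjusted p = 0.097). SQLE, the squalene epoxidase and a rate-setting step, did not pass either (log2 fold change -0.11, SE 0.05, edgeR adjusted p = 0.0708). The remaining 5, TM7SF2, NSDHL, HSD17B7, EBP and DHCR7, lay between -0.14 (DHCR7) and 0.08 (NSDHL) on the log2 scale, with adjusted p from 0.171 to 0.849. Thus 8 of the 10 were not called in either direction.

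Among the 5 genes of SREBP control, 0 rose and both INSIG genes fell, INSIG1 to 89.7% and INSIG2 to 86.1% of control. INSIG1, itself an SREBP target, had 217, 233 and 263 CPM with IRF4 shRNA, against 256, 267 and 274 CPM in controls as lowest, median and highest level (log2 fold change -0.16, SE 0.05, edgeR adjusted p = 0.0114). The ranges overlapped through series 2 of the IRF4 shRNA group. INSIG2 stood at 20.3, 21.3 and 22.0 CPM with IRF4 shRNA, against 21.5, 26.2 and 26.8 CPM in controls (log2 fold change -0.22, SE 0.06, edgeR adjusted p = 0.00978), and its overlap came from control replicates 5 and 6, at 21.5 and 21.6 CPM, beside 26.1 to 26.8 CPM in the other 4 controls. SREBF2, which encodes SREBP2, had 402, 406 and 416 CPM with IRF4 shRNA, against 392, 409 and 451 CPM in controls and did not pass (log2 fold change -0.02, SE 0.03, edgeR adjusted p = 0.688). SREBF1, which encodes SREBP1 and is a known LXR target, had 42.3, 46.6 and 53.5 CPM with IRF4 shRNA, against 39.9, 51.1 and 66.6 CPM in controls and did not pass (log2 fold change -0.11, SE 0.12, edgeR adjusted p = 0.466). SCAP, the escort of both factors, had 61.3, 67.1 and 76.0 CPM with IRF4 shRNA, against 56.4, 62.4 and 72.7 CPM in controls (log2 fold change 0.08, SE 0.07, edgeR adjusted p = 0.327). The 2 INSIG calls were lost under scaling by library size alone, at -0.08 for INSIG1 (adjusted p = 0.153, from 0.00374 over its alternatives) and -0.14 for INSIG2 (adjusted p = 0.0792, from 1.96e-05 over its alternatives). With the GC trend removed from each library, SREBF1 was called lower at -0.15 (adjusted p = 0.00501, 0.00501 to 0.874 over its alternatives).

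In sterol transport and its receptors, ABCA1 rose 5.63-fold and STARD4 fell. ABCA1, the exporter that loads cholesterol onto apolipoproteins and a leading LXR target, had 722, 690, 793, 623, 648 and 718 counts in IRF4 shRNA replicates 1 to 6, against 146, 121, 120, 119, 80 and 106 counts in control replicates 1 to 6. As levels, its lowest, median and highest were 17.6, 19.6 and 22.3 CPM with IRF4 shRNA, against 2.45, 3.65 and 4.14 CPM in controls. No IRF4 shRNA library came near the controls (log2 fold change 2.49, SE 0.11, edgeR adjusted p = 1.34e-10). The log2 fold change was 2.47 in series 1 and 2.52 in series 2, a difference of 0.05 (adjusted p = 0.866), and the rise was called under every alternative run (adjusted p at most 1.49e-07). STARD4, a carrier of cholesterol between membranes, had 71.2, 83.0 and 96.7 CPM with IRF4 shRNA, against 81.3, 106 and 119.8 CPM in controls (log2 fold change -0.27, SE 0.10, edgeR adjusted p = 0.0374). NR1H2, which encodes LXR beta, had 110.5, 141 and 160.4 CPM with IRF4 shRNA, against 98.6, 126 and 180.0 CPM in controls, with the groups overlapping almost whole (log2 fold change 0.06, SE 0.15, edgeR adjusted p = 0.782). NR1H2 overlaps opposite-strand genes that include NAPSB and NAPSA, and NAPSB averaged 618 CPM with IRF4 shRNA and 913 CPM in controls. The STARD4 call was lost without any 1 of control replicates 1 to 4 or of IRF4 shRNA replicates 1 to 4, and over all its alternatives the adjusted p ran from 0.000736 to 0.126.

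**Figure D2:**
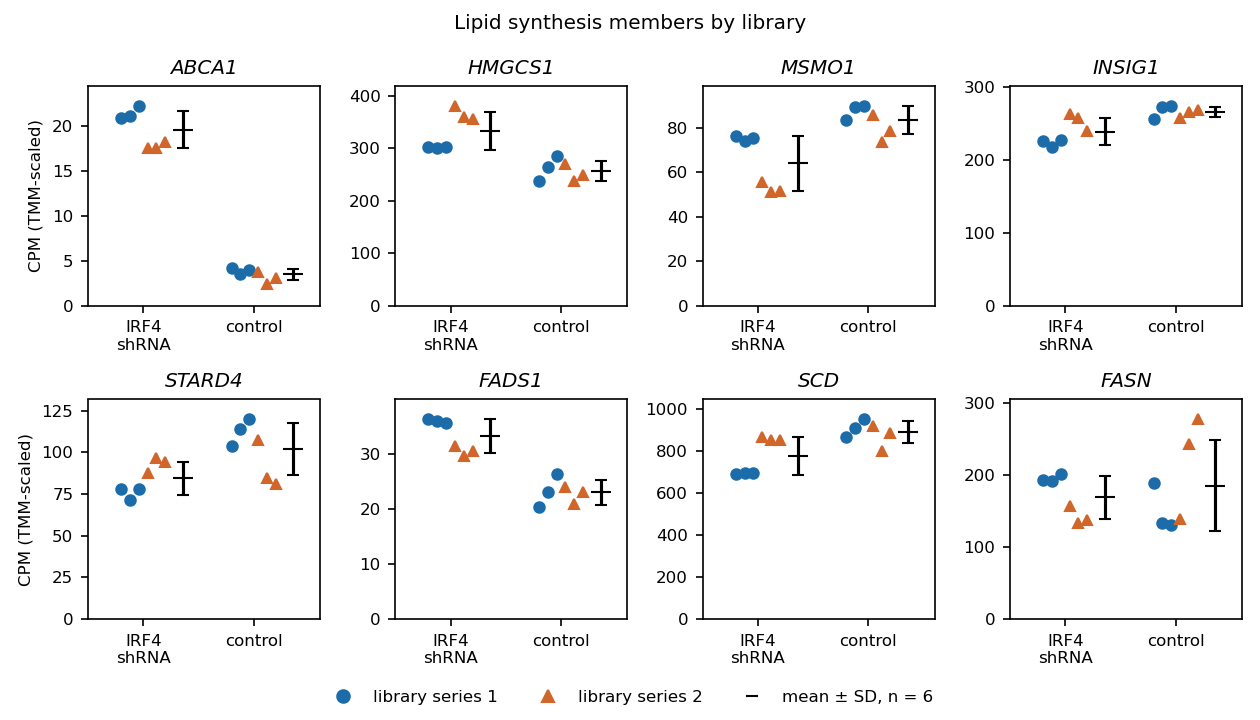
Levels (y axis, CPM) of 8 members in each of the 12 libraries, IRF4 shRNA left and control right; circles are library series 1, triangles series 2, and the black mark is the mean ± SD of 6 libraries. ABCA1 separates the groups in both series, HMGCS1 and FADS1 separate them by less, and FASN shows 3 controls (replicates 1, 5 and 6) at 189, 243 and 277 CPM above the other 3.

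The 3 enzymes of fatty acid synthesis showed 0 calls in either direction across all libraries. At an unadjusted p under 0.05, 0 of the 3 were called, and DESeq2 also called 0. ACLY, the ATP citrate lyase, had 287, 304 and 324 CPM with IRF4 shRNA, against 279, 306 and 309 CPM in controls as lowest, median and highest level (log2 fold change 0.02, SE 0.04, edgeR adjusted p = 0.69). ACACA, the acetyl-CoA carboxylase, had 58.8, 61.9 and 66.7 CPM with IRF4 shRNA, against 56.0, 60.6 and 65.6 CPM in controls (log2 fold change 0.03, SE 0.05, edgeR adjusted p = 0.595). FASN, the fatty acid synthase, had 134, 174 and 201 CPM with IRF4 shRNA, against 130.2, 164 and 277 CPM in controls (log2 fold change -0.13, SE 0.19, edgeR adjusted p = 0.588). The 3 genes differed in spread: the coefficient of variation of FASN was 17.8% with IRF4 shRNA and 33.8% in controls, while that of ACLY was 4.65% with IRF4 shRNA and 3.95% in controls. With the GC trend removed, FASN was called lower at -0.17 (adjusted p = 0.00286; 0.00286 to 0.946 over its alternatives), and with library size alone ACLY was called higher at 0.09 (adjusted p = 0.0443; 0.0443 to 0.999 over its alternatives).

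Among 6 elongases and desaturases, 1 rose and 2 fell. FADS1, the delta-5 desaturase of polyunsaturated fatty acids, rose to 145% of control, the largest change after ABCA1. Its lowest, median and highest levels were 29.6, 33.6 and 36.3 CPM with IRF4 shRNA, against 20.3, 23.2 and 26.5 CPM in controls, with no overlap (log2 fold change 0.53, SE 0.07, edgeR adjusted p = 2.45e-05). FADS1 lies inside the span of FADS2, the delta-6 desaturase on the opposite strand, which had 0.919 ± 0.281 CPM with IRF4 shRNA and 0.722 ± 0.133 CPM in controls (SD, n = 6 each) and did not pass (log2 fold change 0.35, SE 0.23, edgeR adjusted p = 0.225). ELOVL1, an elongase of very long chains, had 46.5, 49.8 and 54.0 CPM with IRF4 shRNA, against 53.6, 57.1 and 59.7 CPM in controls and fell (log2 fold change -0.20, SE 0.04, edgeR adjusted p = 0.00124). SCD, which makes monounsaturated fatty acids, had 692, 775 and 869 CPM with IRF4 shRNA, against 801, 898 and 951 CPM in controls and fell to 87.3% of control (log2 fold change -0.20, SE 0.07, edgeR adjusted p = 0.026). ELOVL5 (0.02, adjusted p = 0.69) and ELOVL6 (-0.00, adjusted p = 0.971), elongases of polyunsaturated and of saturated chains, did not pass. The SCD call was lost without any 1 of control replicates 3 and 4 or of IRF4 shRNA replicates 1, 2 and 3, and over all its alternatives the adjusted p ran from 0.0136 to 0.150.

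The acyl-CoA synthetases, which activate free fatty acids, moved in both directions: 2 of 4 rose and 1 fell. ACSL1 had 101, 104 and 109 CPM with IRF4 shRNA, against 85.0, 92.8 and 97.2 CPM in controls as lowest, median and highest level (log2 fold change 0.18, SE 0.04, edgeR adjusted p = 0.00133). ACSL4, which prefers arachidonic acid, had 160.0, 162 and 176 CPM with IRF4 shRNA, against 118, 141 and 155 CPM in controls (log2 fold change 0.26, SE 0.06, edgeR adjusted p = 0.0028). For both, every IRF4 shRNA library exceeded every control. ACSL3, which resides on lipid droplets and the endoplasmic reticulum, had 125, 128 and 135 CPM with IRF4 shRNA, against 131, 156 and 163 CPM in controls and fell (log2 fold change -0.23, SE 0.05, edgeR adjusted p = 0.00176). ACSL5 did not pass (log2 fold change -0.01, SE 0.05, edgeR adjusted p = 0.874).

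The library series were then taken apart, since the comparison could be made in each with 3 libraries per group. In series 1, 6 of 26 sterol members rose and 6 fell, and 3 of 13 fatty acid members rose and 3 fell, beside 46.0% of all genes called (23.7% higher and 22.3% lower). In series 2, 8 sterol members rose and 6 fell, and 4 fatty acid members rose and 1 fell, beside 45.2% of all genes (22.6% higher and 22.7% lower). Of the 39 members, 7 were called in the same direction in both series, 23 in 1 series alone and 0 in opposite directions. The groups did not overlap for 14 sterol and 8 fatty acid members in series 1, beside 58.1% of all genes, and for 12 and 5 in series 2, beside 50.4%. A call in 1 series alone is no difference between series. The difference itself (series 2 effect minus series 1 effect) was called for 8 of 26 sterol members and 2 of 13 fatty acid members, beside 14% of all genes (5.07% higher and 8.97% lower in series 2).

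**Figure D3:**
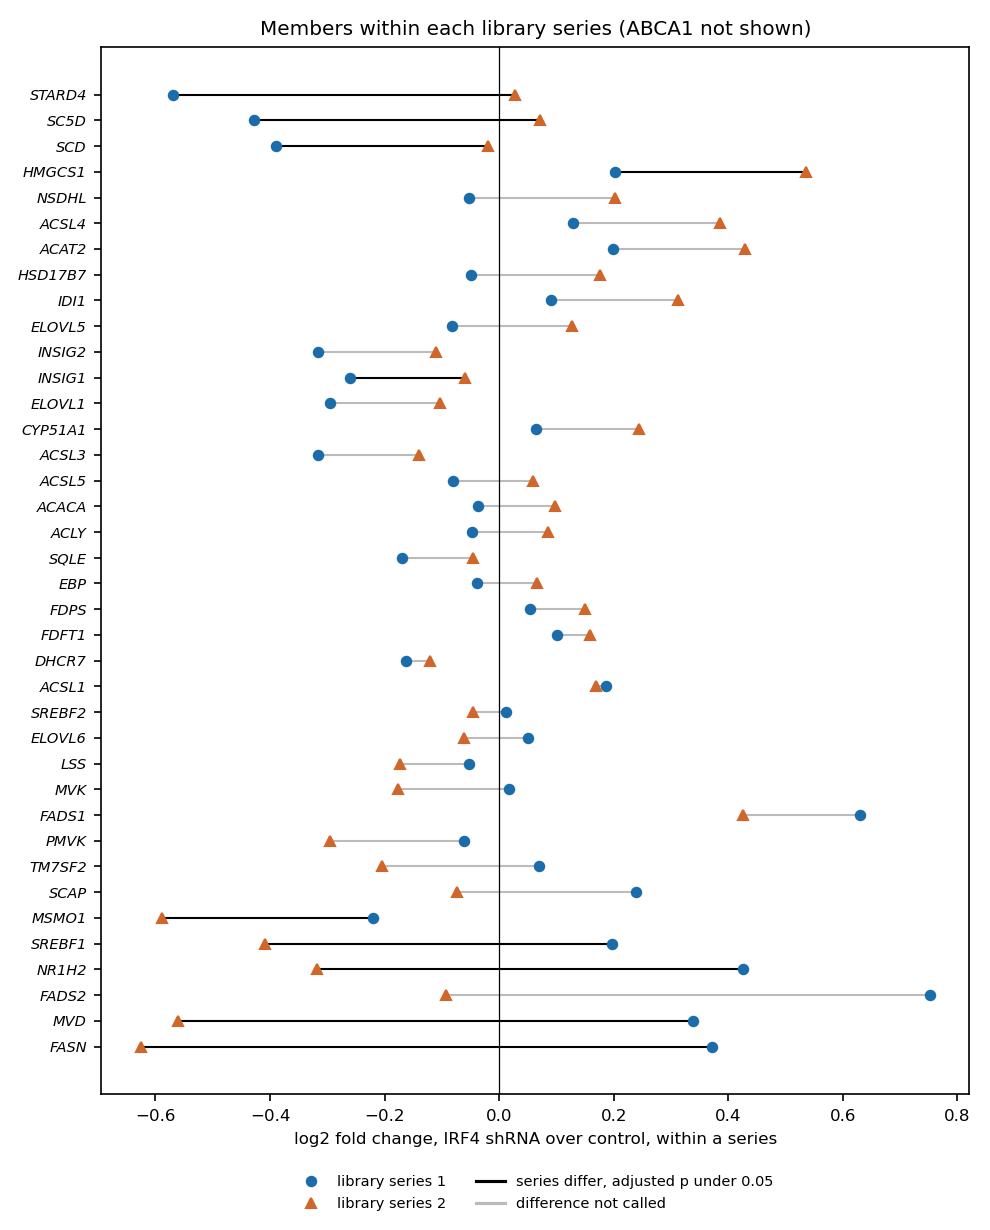
Log2 fold change of IRF4 shRNA over control (x axis) within library series 1 (circles) and series 2 (triangles), 3 libraries of each group per series, for 38 tested members (ABCA1 is left out for scale) ordered by the difference; black lines join members whose difference between series had an adjusted p under 0.05. STARD4, SC5D and SCD lie lower in series 1, and MSMO1, SREBF1, NR1H2, MVD and FASN lie lower in series 2.

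SCD had 692, 695 and 698 CPM in its IRF4 shRNA libraries, against 867, 911 and 951 CPM in its controls in series 1. In series 2 it had 869, 851 and 854 CPM in its IRF4 shRNA libraries, against 921, 801 and 886 CPM in its controls. SCD thus fell in series 1, by 0.39 on the log2 scale, while its series 2 value was -0.02 (adjusted p = 0.776); the difference was 0.37 (adjusted p = 0.00921). SC5D showed 41.5, 37.7 and 38.7 CPM in its IRF4 shRNA libraries, against 49.5, 55.4 and 53.8 CPM in its controls in series 1 and 48.7, 46.7 and 48.8 CPM in its IRF4 shRNA libraries, against 51.1, 44.1 and 42.2 CPM in its controls in series 2, a difference of 0.50 (adjusted p = 0.0111). STARD4 showed 78.2, 71.2 and 78.2 CPM in its IRF4 shRNA libraries, against 104, 114 and 119.8 CPM in its controls in series 1 and 87.8, 96.7 and 94.0 CPM in its IRF4 shRNA libraries, against 107, 84.5 and 81.3 CPM in its controls in series 2, a difference of 0.60 (adjusted p = 0.0131). In series 1 all 3 genes lay below control in every IRF4 shRNA library, and in series 2 their groups overlapped. MSMO1 went the other way: 76.4, 74.1 and 75.2 CPM in its IRF4 shRNA libraries, against 83.5, 89.6 and 89.9 CPM in its controls in series 1 and 55.6, 51.2 and 51.4 CPM in its IRF4 shRNA libraries, against 85.7, 73.7 and 78.4 CPM in its controls in series 2. It fell in both, by more in series 2 (difference -0.37 (adjusted p = 0.0152)). With the GC trend removed, the series 1 value of MSMO1 was -0.093 and not called (adjusted p = 0.149, from 0.000849 over its alternatives). HMGCS1 rose in both series, at 0.20 (adjusted p = 0.0146) in series 1 and 0.54 (adjusted p = 6.55e-06) in series 2, with a difference of 0.33 (adjusted p = 0.024). The series 1 call of HMGCS1 was lost without control replicate 1 (0.14, adjusted p = 0.0627, from 0.000114 over its alternatives). INSIG1 fell in series 1 at -0.26 (adjusted p = 0.000274), stood at -0.06 (adjusted p = 0.305) in series 2, and differed by 0.20 (adjusted p = 0.0492).

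FASN, MVD, NR1H2 and SREBF1 made up a second group, each with a log2 fold change above 0 in series 1 and below 0 in series 2. FASN had 194, 192 and 201 CPM in its IRF4 shRNA libraries, against 189, 134 and 130.2 CPM in its controls in series 1 and 156, 134 and 138 CPM in its IRF4 shRNA libraries, against 139, 243 and 277 CPM in its controls in series 2. MVD had 62.6, 57.4 and 61.0 CPM in its IRF4 shRNA libraries, against 57.7, 42.7 and 42.7 CPM in its controls in series 1 and 55.4, 46.0 and 45.2 CPM in its IRF4 shRNA libraries, against 47.7, 75.7 and 92.5 CPM in its controls in series 2. Within the controls, replicates 1, 5 and 6 were the 3 highest libraries for all 4 genes. The difference between series was -0.998 (adjusted p = 0.0287) for FASN, -0.90 (adjusted p = 0.0352) for MVD, -0.74 (adjusted p = 0.0391) for NR1H2 and -0.61 (adjusted p = 0.0363) for SREBF1. These 4 are among the members richest in GC, at 65.8% for FASN, 63.5% for MVD, 62.9% for SREBF1 and 61.9% for NR1H2, where the median member had 49.9%. Across the 39 members, which are not independent replicates and share the same 12 libraries, Spearman's rho of the series difference with transcript GC was -0.71, and it was -0.52 over 15832 tested genes with a GC value.

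**Figure D4:**
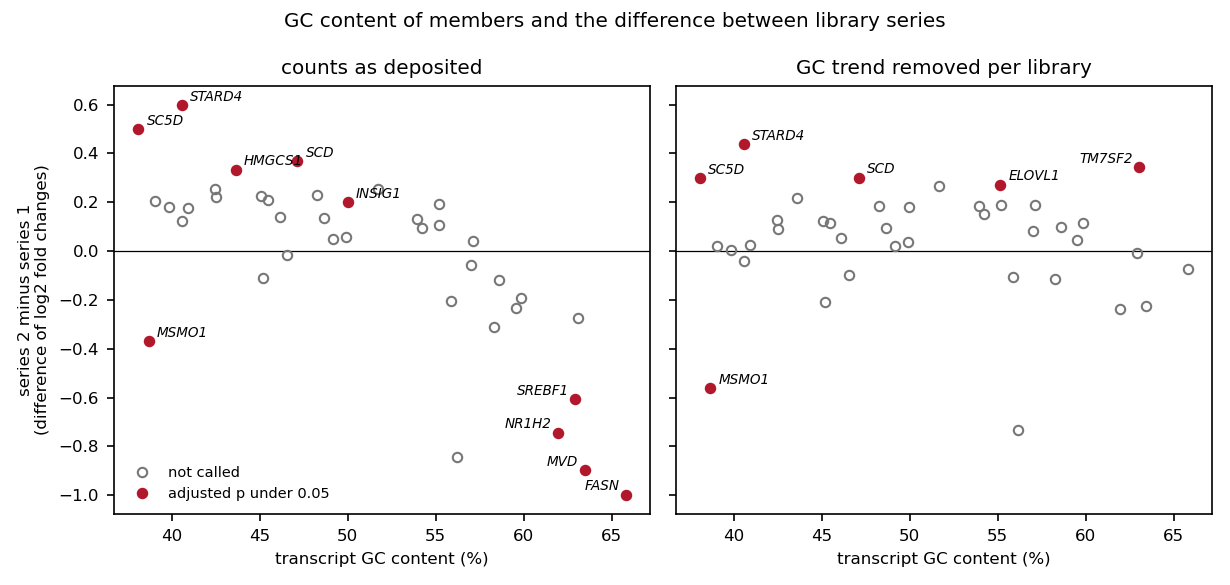
Difference of log2 fold changes between library series (y axis, series 2 minus series 1) against the GC content of the gene's transcripts (x axis, %) for 39 members, from the counts as deposited (left) and after a smooth GC trend was removed from each library (right). Spearman's rho was -0.71 on the left and -0.12 on the right, and the filled points are members whose difference had an adjusted p under 0.05.

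After a smooth trend with GC was removed from each library, the differences of the GC-rich group were -0.07 (adjusted p = 0.626) for FASN, -0.23 (adjusted p = 0.255) for MVD, -0.24 (adjusted p = 0.197) for NR1H2 and -0.01 (adjusted p = 0.964) for SREBF1, so none of these 4 calls held. Those of HMGCS1, at 0.22 (adjusted p = 0.0579), and INSIG1, at 0.18 (adjusted p = 0.0654), did not hold either. MSMO1 at -0.56 (adjusted p = 0.000329), STARD4 at 0.44 (adjusted p = 0.00537), SCD at 0.30 (adjusted p = 0.00487) and SC5D at 0.30 (adjusted p = 0.0147) kept their calls, and TM7SF2 at 0.34 (adjusted p = 0.0327) and ELOVL1 at 0.27 (adjusted p = 0.0169) gained one. Without control replicates 5 and 6, the libraries that stood apart in GC, series 2 kept control replicate 4 alone. The difference was then 0.34 for SC5D and 0.36 for STARD4. Calls from that fit are not given, as its series 2 control group has no spread of its own. What the series number stands for, and its part in these differences, was not tested.

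Some genes next to the pathway showed larger changes than any member but ABCA1, and their counts are read beside the 48.2% of all genes called. Of 6 listed LXR genes other than the members, 5 were tested, 3 rose and 0 fell, with a median log2 fold change of 0.85. This list leaves out the members, of which ABCA1 rose, the known LXR target SREBF1 did not pass and ABCG1 was not tested. LPCAT3, which remodels phospholipids, averaged 21.8 ± 1.35 CPM with IRF4 shRNA and 12.1 ± 1.39 CPM in controls (SD, n = 6 each; log2 fold change 0.85, SE 0.07, edgeR adjusted p = 2.31e-07). APOC1, a lipoprotein component, averaged 2.84 ± 0.255 CPM with IRF4 shRNA and 1.20 ± 0.194 CPM in controls (log2 fold change 1.24, SE 0.12, edgeR adjusted p = 9.05e-07). SMPDL3A, a phosphodiesterase related to sphingomyelinase, averaged 1.67 ± 0.532 CPM with IRF4 shRNA and 0.711 ± 0.179 CPM in controls (log2 fold change 1.23, SE 0.23, edgeR adjusted p = 0.000438). All 3 lay above every control in every IRF4 shRNA library. NR1H3, which encodes LXR alpha, was at 0.28 (adjusted p = 0.28) and APOE at 0.00 (adjusted p = 0.998), so neither passed. Without IRF4 shRNA replicate 4, NR1H3 was called higher at 0.43 (adjusted p = 0.0475, 0.0475 to 0.499 over its alternatives). Within the series, all 5 tested genes of the list had values above 0 in series 1, and 3 of them did in series 2. APOE stood at 0.74 (adjusted p = 0.0925) in series 1 and -0.87 (adjusted p = 0.0569) in series 2, and NR1H3 at 0.59 (adjusted p = 0.0633) in series 1 and -0.09 (adjusted p = 0.8) in series 2. The difference between series was called for 1 of the 5, APOE, at -1.60 (adjusted p = 0.0436). It was not called with the GC trend removed (-0.69, adjusted p = 0.197). Nor was it called without any 1 of control replicates 2, 3, 5 and 6 or of the 6 IRF4 shRNA replicates. Without control replicates 5 and 6, which leaves control replicate 4 alone in series 2, it was -0.52. Its lowest adjusted p over the alternatives was 0.000875. APOE averaged 2.05 CPM with IRF4 shRNA and 2.03 CPM in controls. Of 6 listed genes of oxysterol handling, 3 were tested and 2 rose: GPR183, the oxysterol receptor that positions B cells, at 0.37 (adjusted p = 0.000222), and the bile acid enzyme HSD3B7 at 0.72 (adjusted p = 0.00406). CYP46A1, the cholesterol 24-hydroxylase, was at 0.01 (adjusted p = 0.973).

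Of 10 tested genes of other sterol synthesis and uptake, 3 rose and 2 fell. NPC2, which moves cholesterol out of lysosomes, averaged 33.1 ± 1.03 CPM with IRF4 shRNA and 49.1 ± 0.921 CPM in controls (SD, n = 6 each; log2 fold change -0.57, SE 0.03, edgeR adjusted p = 3.05e-09). MYLIP, a ubiquitin ligase for lipoprotein receptors and a known LXR target, averaged 10.1 ± 0.896 CPM with IRF4 shRNA and 6.96 ± 0.656 CPM in controls (log2 fold change 0.54, SE 0.08, edgeR adjusted p = 3.86e-05). Of 10 genes of SREBP processing and sterol-regulated degradation, 4 rose and 3 fell. C12orf49, the table's name for the SREBP regulator SPRING1, was at 0.45 (adjusted p = 3.69e-07), and ERLIN2, a scaffold for sterol-regulated degradation, at -0.38 (adjusted p = 1.69e-05). Of 12 genes of non-sterol isoprenoids, 4 rose and 2 fell, led by NUS1 of dolichol synthesis at -0.41 (adjusted p = 5.93e-06), PDSS2 of ubiquinone synthesis at 0.33 (adjusted p = 0.00016) and the prenyltransferase subunit RABGGTA at -0.21 (adjusted p = 0.00711). The call on RABGGTA was lost under scaling by library size alone (-0.14, adjusted p = 0.0544, from 0.00192 over its alternatives).

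Of 15 tested genes of other fatty acid synthesis, 8 rose and 3 fell. FADS3, a further gene of the FADS cluster, averaged 54.2 ± 6.11 CPM with IRF4 shRNA and 13.9 ± 1.0 CPM in controls (SD, n = 6 each; log2 fold change 1.97, SE 0.08, edgeR adjusted p = 2.01e-11). LPIN1, a phosphatidate phosphatase, averaged 141 ± 6.72 CPM with IRF4 shRNA and 72.8 ± 3.82 CPM in controls (log2 fold change 0.95, SE 0.04, edgeR adjusted p = 1.43e-10). HSD17B12, a reductase of chain elongation, averaged 77.4 ± 4.99 CPM with IRF4 shRNA and 125 ± 10.8 CPM in controls and fell (log2 fold change -0.69, SE 0.06, edgeR adjusted p = 1.77e-07). Of 14 genes of fatty acid oxidation, 10 rose and 3 fell, with a median log2 fold change of 0.21. The smallest p-values there belonged to the nuclear receptor PPARD at 0.36 (adjusted p = 1.72e-05), HADHB of the trifunctional protein at 0.24 (adjusted p = 4.40e-05) and the carnitine palmitoyltransferase CPT1B at 0.35 (adjusted p = 7.53e-05). HADHA, the partner of HADHB, fell at -0.16 (adjusted p = 0.00185) while HADHB rose. The HADHA call was lost under scaling by library size alone (-0.083, adjusted p = 0.0713, from 0.000181 over its alternatives). Of 8 genes of lipid droplets and triglycerides, 1 rose and 4 fell: DGAT2, which makes triglyceride, averaged 7.85 ± 0.292 CPM with IRF4 shRNA and 16.6 ± 1.63 CPM in controls (log2 fold change -1.08, SE 0.07, edgeR adjusted p = 5.27e-09), the droplet coat gene PLIN2 was at -0.39 (adjusted p = 2.26e-05), and PLIN3 rose at 0.57 (adjusted p = 3.69e-05).

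**Figure D5:**
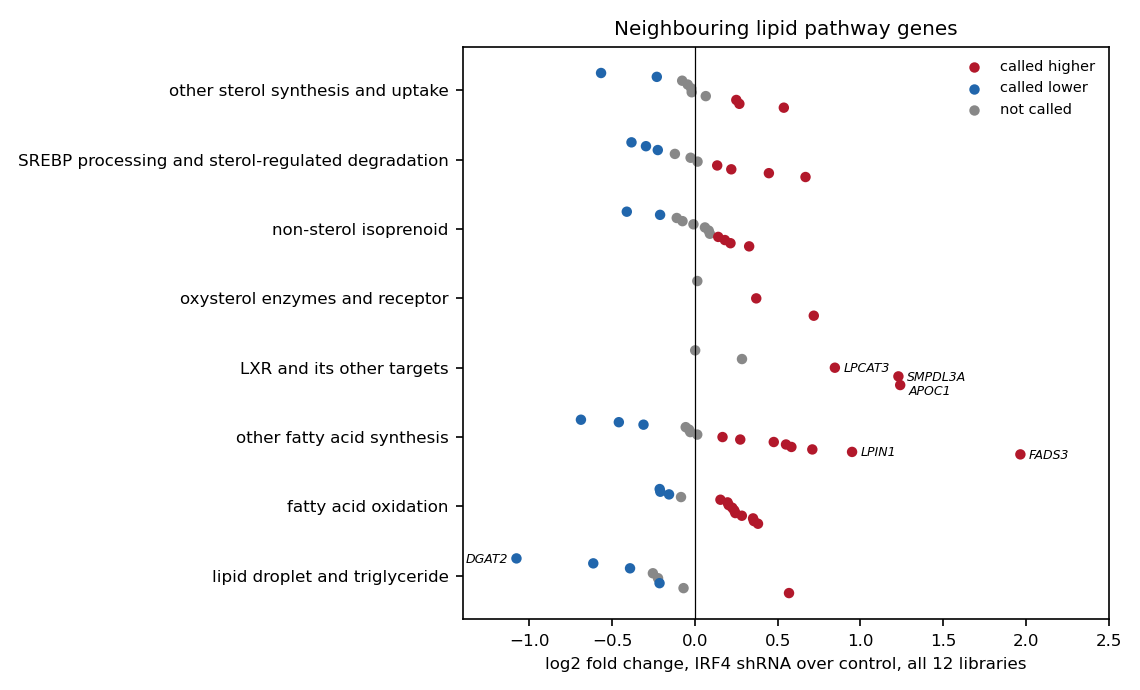
Log2 fold change of IRF4 shRNA over control (x axis, all 12 libraries) for the tested genes of 8 neighbouring lists (y axis), 1 point per gene, red where called higher, blue where called lower and grey where not called; the called genes farthest from 0 are labelled. FADS3 reaches 1.97 and DGAT2 -1.08, while the genes of fatty acid oxidation lie within -0.21 (ACADM) to 0.38 (CPT1A).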

How the data were processed

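The authors deposited estimated counts (expected counts) per gene with no normalization, per the submitters' processing notes, which name HTSeq, STAR and build hg38 without their roles. Of the values, 66.6% were whole (tolerance 1e-06), and the step that left the others fractional is not stated in those notes. Such counting can split reads between near-identical copies. Counts were rounded, filtered with filterByExpr (minimum count 10, leaving 16437 genes) and tested with edgeR 4.0.16 in R 4.3.3, over all 12 libraries by group alone, and per series in 1 fit with a mean for each group and series. The SE of a log2 fold change is its ratio to the root of F. The floor of 3 counts was 0.0762 to 0.0980 CPM per library, for counting error only. Between replicates of a group and series, chi-square over its degrees of freedom was 2.84 to 34.6 (genes with 20 or more counts), above sampling noise. Gene coordinates and names are the deposited table's; transcript GC came from GENCODE 29 (96.3% of tested genes), and its lowess trend (span 0.3) was removed per library in 1 alternative. Promoters are RefSeq's. Simulated counts served to check the scripts. Other alternatives were library size, DESeq2 size factors, DESeq2 1.42.0, no filter, library series as covariate, a replicate block, each series alone, and leaving out libraries.

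Members and lists were chosen with earlier results of these data known. Each member is named; per-library ranges are given for the 3 smallest p of each role, SREBF1, SREBF2, both INSIG genes and up to 6 members with the smallest p for the series difference. Values printed beyond this rule (FDFT1, PMVK, FADS2, the series values of MVD, INSIG1, NR1H2 and SREBF1, and NR1H3, APOE and HADHA) were chosen after they were seen. Of each further list, the 3 genes with the smallest p are named, apart from some that are not reported here.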

Additional observations from a re-analysis of the deposited data

Results flagged for a closer look

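The effect of IRF4 shRNA differed between the library series (series 2 minus series 1, edgeR interaction, adjusted p under 0.05) for 10 members. It was lower in series 2 for FASN (-0.998), MVD (-0.90), NR1H2 (-0.74), SREBF1 (-0.61) and MSMO1 (-0.37). It was higher in series 2 for STARD4 (0.60), SC5D (0.50), SCD (0.37), HMGCS1 (0.33) and INSIG1 (0.20). The calls of FASN, NR1H2 and SREBF1 were lost without any 1 of control replicates 2, 3, 5 and 6 or of the 6 IRF4 shRNA replicates, and that of MVD without the same libraries other than IRF4 shRNA replicate 4. The call of INSIG1 was lost without any 1 of control replicates 2, 3, 5 and 6 or IRF4 shRNA replicates 1 to 5, and that of HMGCS1 without any 1 of control replicates 2, 3 and 5 or IRF4 shRNA replicates 1, 3, 4 and 5. Those of MSMO1, STARD4, SC5D and SCD held with any 1 library left out. Outside the members, the effect on APOE was also lower in series 2 (-1.60), a call lost in 10 of the 12 fits that left out 1 library.

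A single library lay far from the other 5 of its group, by Dixon's critical value of 0.625, in 4 of 78 groups tested, where chance gives about 1 in 20. These were MVK in IRF4 shRNA replicate 4 (37.9 CPM), and FDFT1 (294 CPM), DHCR7 (109 CPM) and SREBF2 (451 CPM) in control replicate 6. The 3 control values are the highest of their group and come from 1 of the libraries that stood apart in GC. Whether the GC trend has a part in them was not tested.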

How the results depend on the processing

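The calls of ABCA1, ACAT2, HMGCS1, IDI1, FDFT1, CYP51A1, MSMO1, FADS1, ACSL1, ACSL4, ELOVL1 and ACSL3 over all libraries held under every alternative run. Fallen sterol members (5) numbered 1 with library size alone, 3 with the replicate block, 8 with the GC trend removed and 3 to 5 with 1 library left out. The block took away the calls of PMVK, STARD4 and SCD. Same-numbered replicates correlated between -0.23 and 0.11 in their deviations from the group means. Those deviations also followed GC, so the values do not settle whether the numbers pair the libraries. In series 1, fallen sterol members (6) were 10 with the GC trend removed and risen fatty acid members (3) 5 with the series alone. With 1 library left out, risen sterol members ran from 3 to 7 and risen fatty acid members from 2 to 5. In series 2, fallen sterol members (6) were 3 with library size or the series alone and 1 to 10 with 1 library left out (1 without control replicate 6). Fallen fatty acid members (1) were 2 with the GC trend removed and 0 to 1, and risen ones (4) 2 to 6, with 1 library left out. Genes differing between series (2308) were 206 without control replicates 5 and 6, 1421 with the GC trend removed and 738 to 5343 with 1 library left out (5343 without control replicate 4, 738 without IRF4 shRNA replicate 6). Of members, without control replicates 5 and 6 the sterol counts were 0 higher and 1 lower and the fatty acid count 0 lower. With the GC trend removed they were 1 sterol lower, 2 fatty acid higher and 0 lower. DESeq2's size factors and Wald test gave 2 fatty acid higher. Leaving out 1 library gave 2 to 10 sterol higher, 1 to 7 sterol lower, 1 to 6 fatty acid higher and 0 to 1 lower.

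Signs of log2 fold changes that were not called turned over without control replicates 5 and 6 for MVK (0.022), MVD (0.19), TM7SF2 (0.073), SREBF1 (0.062), SREBF2 (0.013), ACACA (-0.0043), FASN (0.19), ELOVL5 (-0.014), CYP46A1 (-0.15) and the series difference of ABCA1 (-0.24). The value of APOE over all libraries did so with DESeq2's size factors (-0.00018), library series as covariate (-0.046), the GC trend removed (-0.037) and 1 library left out (-0.12 to 0.19). Signs also turned with library size alone for SREBF2 (0.057), ELOVL6 (0.070), ACSL5 (0.063) and without the filter for ELOVL6 (0.0067), ACSL5 (0.00053). With the GC trend removed they did so for ELOVL6 (0.018), ACSL5 (0.0096), CYP46A1 (-0.0042) and for the series differences of MVK (0.12), PMVK (0.047), SQLE (-0.042), LSS (0.10), TM7SF2 (0.34), SREBF2 (0.082), that of TM7SF2 then being called. With 1 library left out, log2 fold changes crossed 0 for EBP (-0.0041 to 0.074), NR1H2 (-0.016 to 0.16), MVD (-0.21 to 0.034), TM7SF2 (-0.12 to 0.020), SREBF2 (-0.031 to 0.0094), FASN (-0.22 to 0.016), ELOVL6 (-0.016 to 0.053), ACSL5 (-0.037 to 0.024), CYP46A1 (-0.17 to 0.19), and series differences for DHCR7 (-0.039 to 0.19), ABCA1 (-0.092 to 0.21), ACSL1 (-0.067 to 0.030). The causes of these shifts were not tested. Low counts limit genes such as ABCG1, FADS2, SMPDL3A and CYP46A1, and with 3 libraries a group and series small changes can be missed.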
